A study of Homo sapiens with 6 samples.

Results

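The 10 genes described here encode amino acid carriers of the SLC38, SLC36 and SLC6 families: SLC38A1, SLC38A2, SLC38A5, SLC38A7, SLC38A9, SLC38A10, SLC36A1, SLC36A4, SLC6A9 and SLC6A15. They were chosen by name, and all 10 were found among the 35750 genes listed. RNA was sequenced from T98G cells, a human glioblastoma line, in 2 groups of 3 libraries each. The first group is labelled shSLC1A5 and carries a short hairpin RNA against SLC1A5, the sodium-dependent carrier that brings glutamine into the cell. The second, labelled shControl, is the control for it. All 6 libraries come from this line grown in medium with fetal bovine serum, and no drug or time course is named. What the hairpin's sequence, delivery and clones were is not given in the sources used here. Whether the 3 libraries were separate cultures is not stated in the labels either, and p-values therefore cover only library-to-library spread, which may be technical.

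SLC38 proteins carry small neutral amino acids such as glutamine and alanine. SLC38A1 and SLC38A2 take them up with sodium at the cell surface, while SLC38A7 and SLC38A9 sit in the lysosome membrane, where SLC38A9 also senses arginine for the growth kinase mTORC1. Some SLC36 proteins, such as SLC36A1, move amino acids together with protons. SLC6 proteins couple uptake to sodium, and many of them to chloride as well. In glioma cells these carriers work beside SLC1A5 and the SLC7 exchangers as routes for glutamine and other amino acids.

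Total counts ran from 66998312 to 70802167 in shSLC1A5 libraries and from 59327548 to 63420773 in shControl libraries. SLC1A5 itself was at 87.9 ± 0.407 FPKM in shSLC1A5 and 95.8 ± 1.15 FPKM in shControl (SD, n = 3 each), where FPKM are fragments scaled to gene length and library size. Its transcript was thus 9.02% lower (95% confidence interval 6.44% to 11.5%, edgeR adjusted p = 1.93e-04). In a fit with offsets for GC content and length it was 21.2% lower (95% confidence interval 19.0% to 23.4%, edgeR adjusted p = 2.11e-07). The transcript has 61.3% GC, and such offsets draw fold changes of GC-rich and GC-poor genes together by construction. The size of the fall thus depends on the fit. Directions below are those of the libraries labelled shSLC1A5. Of 9 markers of T98G and glioma, 4 had a mean under 1 FPKM, among them GFAP, SOX2 and NES, while VIM, CD44 and EGFR were high. Summed FPKM of the 5 B cell markers ran from 3.28 to 5.82 in shSLC1A5 and from 0.0269 to 0.0835 in shControl. The 5 neutrophil markers summed to 0.404, 0.516 and 50.8 FPKM in shSLC1A5, the last value being that of replicate 1, and to at most 0.264 FPKM in shControl. In that replicate S100A8 was at 32.2 FPKM and S100A9 at 18.1 FPKM. The other markers were far lower, with ELANE at 0.317, LTF at 0.163 and MPO at 0 FPKM, so the list did not rise as a whole. ALAS2, a red cell marker, was at 4.71 FPKM in the same library, with HBA1 and HBA2 at 0. In bulk RNA, fewer cells of a type and less RNA per cell cannot be told apart. The part of these reads in the results below was not tested. Called members are also given without shSLC1A5 replicate 1, which leaves out the library with the most S100A8 and S100A9 reads. The B cell reads remain in that fit. IGHM was at 4.86, 2.66 and 4.89 FPKM in shSLC1A5 and at 0 in each shControl library. What comes with these reads cannot be told apart from the group.

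The carriers moved in both directions. Tested were the 9 members that averaged at least 1 FPKM across the 6 libraries. SLC6A15 reached that minimum only through the shSLC1A5 libraries, with means of 1.67 FPKM there and 0.816 FPKM in shControl. Its place in the counts below is thus tied to its rise. SLC38A1, SLC38A2 and SLC6A9 fell and SLC6A15 and SLC38A10 rose in the libraries labelled shSLC1A5 (adjusted p under 0.05, edgeR quasi-likelihood test with Benjamini-Hochberg adjustment over 11841 genes). The rise of SLC38A10 was lost in a second fit, the one with offsets for the GC content and length of transcripts, which is called the GC-corrected fit here. SLC38A7, SLC38A9, SLC36A1 and SLC36A4 did not pass, and SLC38A5 was close to 0 and was not tested. The 5 of 9 called stand against 39.2% of all tested genes, the 2 higher against 20.2% and the 3 lower against 19.0%. In FPKM the groups did not overlap for these 5 members, against 49.6% of all tested genes. The median log2 fold change was -0.05 over the 9 members and -0.01 over all tested genes. The same 5 genes passed without shSLC1A5 replicate 1, against 33.6% of all tested genes, with log2 fold changes of -0.34 for SLC38A1, -0.13 for SLC38A2, -0.50 for SLC6A9, 1.03 for SLC6A15 and 0.27 for SLC38A10. Without shControl replicate 2, SLC36A4 passed as a sixth (log2 fold change 0.15, edgeR adjusted p = 0.0331).

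**Figure D1:**
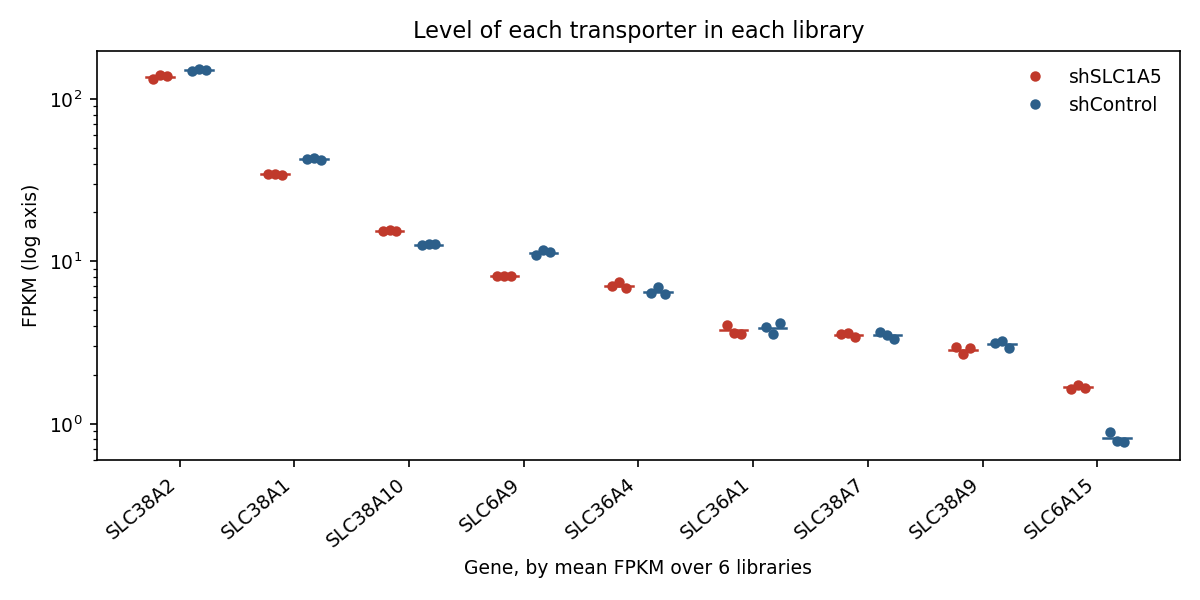
FPKM of 9 transporters (log axis) in each library, shSLC1A5 in red left of shControl in blue, with a line at each group's mean. SLC38A2 lies near 140 FPKM and SLC6A15 near 1 FPKM, and the groups separate for SLC38A2, SLC38A1, SLC38A10, SLC6A9 and SLC6A15.

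Levels spanned a wide range, and SLC38A2 was far the most abundant. It took 63.2%, 64.5% and 64.6% of the summed FPKM of the 10 members in shSLC1A5 libraries and 63.7%, 64.0% and 64.2% in shControl libraries, so its share overlapped between groups. SLC38A1 took 16.4%, 15.9% and 15.8% in shSLC1A5, against 18.4%, 18.2% and 18.1% in shControl, with no overlap. The sum over the members was 214 ± 4.27 FPKM in shSLC1A5 and 235 ± 2.86 FPKM in shControl (SD, n = 3 each), a ratio of 0.911. In both groups the order of levels was SLC38A2, SLC38A1, SLC38A10, SLC6A9, SLC36A4, SLC36A1, SLC38A7, SLC38A9, SLC6A15 and SLC38A5. SLC36A1 and SLC38A7 were the only neighbours in that order whose ranges met, in each group. SLC38A10 and SLC6A9 stood well apart in shSLC1A5, where the lowest SLC38A10 value was 15.4 FPKM and the highest SLC6A9 value 8.15 FPKM. In shControl they stood closer, with a lowest SLC38A10 value of 12.6 FPKM and a highest SLC6A9 value of 11.7 FPKM.

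SLC38A1 and SLC38A2, which are among the carriers of system A, lie near each other on chromosome 12, both on the minus strand and 88236 bases apart. SLC38A1 (ENSG00000111371, GRCh38 chromosome 12, 46183063 to 46269951) was at 34.5, 34.7 and 33.9 FPKM in shSLC1A5 and at 42.8, 43.3 and 42.2 FPKM in shControl. Every shSLC1A5 value lay below every shControl value, on 25508 to 27662 counts against 28125 to 30710 counts. It fell by 0.33 on the log2 scale (SE 0.0193, edgeR adjusted p = 5.58e-07), which is 20.3% lower (95% confidence interval 17.9% to 22.6%). This was fall number 603 of 11841 tested genes by size.

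SLC38A2 (ENSG00000134294, chromosome 12, 46358188 to 46372773), whose transcript is induced when amino acids are scarce, was at 132, 141 and 138 FPKM in shSLC1A5 and at 148, 152 and 150.1 FPKM in shControl. The groups did not overlap in FPKM, and shSLC1A5 replicate 1 was the lowest library. Before scaling to depth they did overlap, with 69020, 69578 and 67524 counts in shSLC1A5 and 69194, 70024 and 64951 counts in shControl. It fell by 0.14 (SE 0.0200, edgeR adjusted p = 2.39e-04), or 9.55% with an interval of 6.73% to 12.3%. In the GC-corrected fit it fell by 0.07 (edgeR adjusted p = 0.0168). The ratio of SLC38A2 to SLC38A1 in FPKM was 3.84, 4.06 and 4.07 in shSLC1A5 libraries and 3.47, 3.52 and 3.55 in shControl libraries. SLC38A1 thus fell by the larger proportion of this pair. The intervals of their log2 fold changes, -0.37 to -0.29 for SLC38A1 and -0.19 to -0.10 for SLC38A2, did not meet.

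Stretches of DNA before an inner start of SLC38A1, at 46267987, and before the start of SLC38A2, at 46372773, are shown because the pair fell together. They are from RefSeq on GRCh38.p14, minus strand, without bases of the genes' own exons in GENCODE 29, and no letter is in capitals because neither printed stretch holds a motif searched.
SLC38A1, chr12:46267988-46268137: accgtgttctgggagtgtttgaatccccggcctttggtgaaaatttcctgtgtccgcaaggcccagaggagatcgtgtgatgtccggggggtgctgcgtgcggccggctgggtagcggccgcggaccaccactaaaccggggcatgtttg
SLC38A2, chr12:46372868-46372923: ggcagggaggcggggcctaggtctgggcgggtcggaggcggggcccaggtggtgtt
The GC content was 62.0% for SLC38A1 and 76.8% for SLC38A2. RefSeq promoter windows, 250 bases before to 50 after a start, were found for 9 of the 10 members, in 15 windows. SLC6A15 had none.

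Motifs chosen with the values known were searched on both strands of these windows. TGATGNAAN, which the stress factor ATF4 binds with partners of the C/EBP family, was in 3.61% of all 35116 windows. Among the members it was found in 1 of the 15 windows, at an inner start of SLC38A1, where it begins 4 bases before the start. CACGTG, the E-box that lysosomal regulators such as TFEB and TFE3 bind, was in 7.26% of all windows and in 3 of the 15, those of SLC36A1, SLC38A7 and SLC38A5. ACGTG, the core of the hypoxia response element, lies within every CACGTG and was in 21.4% of all windows and 5 of the 15. Among these 5 is the window of the SLC38A1 start at 46267987, with a match 188 bases before it, outside the stretch printed above. The matches to the first and second motif are shown in capitals within 30 bases.
SLC38A1, minus strand, chr12:46266501-46266530: cagacccgaaTGATGAAAAgggatcagcta
SLC36A1, plus strand, chr5:151447548-151447577: cgctcaagggagCACGTGacctcggcctct
SLC36A1, plus strand, chr5:151447583-151447612: gggcggtgggatCACGTGatgaggtccgga
SLC38A7, minus strand, chr16:58684739-58684768: gtgatgcatgctCACGTGtctccgcagccg
SLC38A5, minus strand, chrX:48470449-48470478: tcctgtagcggaCACGTGgcttgcctggga
The matches of SLC36A1 begin 43 and 8 bases before an inner start and that of SLC38A5 begins 206 bases before its start, while that of SLC38A7 follows the start. A match describes the letters of a window and not binding. Sequence outside the windows was not searched, so a gene without a match here may hold one elsewhere.

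SLC38A10, a relative of these carriers on chromosome 17 (ENSG00000157637, 81244811 to 81295547, minus strand), was at 15.4, 15.5 and 15.4 FPKM in shSLC1A5 and at 12.6, 12.7 and 12.7 FPKM in shControl. Libraries of a group were almost level and the groups lay well apart. The log2 fold change was 0.27 (SE 0.0265, edgeR adjusted p = 2.09e-05), or 20.7% higher with an interval of 15.9% to 25.6%. Across 11800 tested genes, which are not independent replicates, fold changes were higher for transcripts richer in GC (Spearman correlation 0.49). SLC38A10 has the most GC-rich transcript of the members, 64.3% against a median of 48.0% over tested genes. In the GC-corrected fit its log2 fold change was -0.03, with an interval of -0.09 to 0.03 and an edgeR adjusted p of 0.490. Its exons share 7.91% of their bases with AC027601.4 on the opposite strand.

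**Figure D2:**
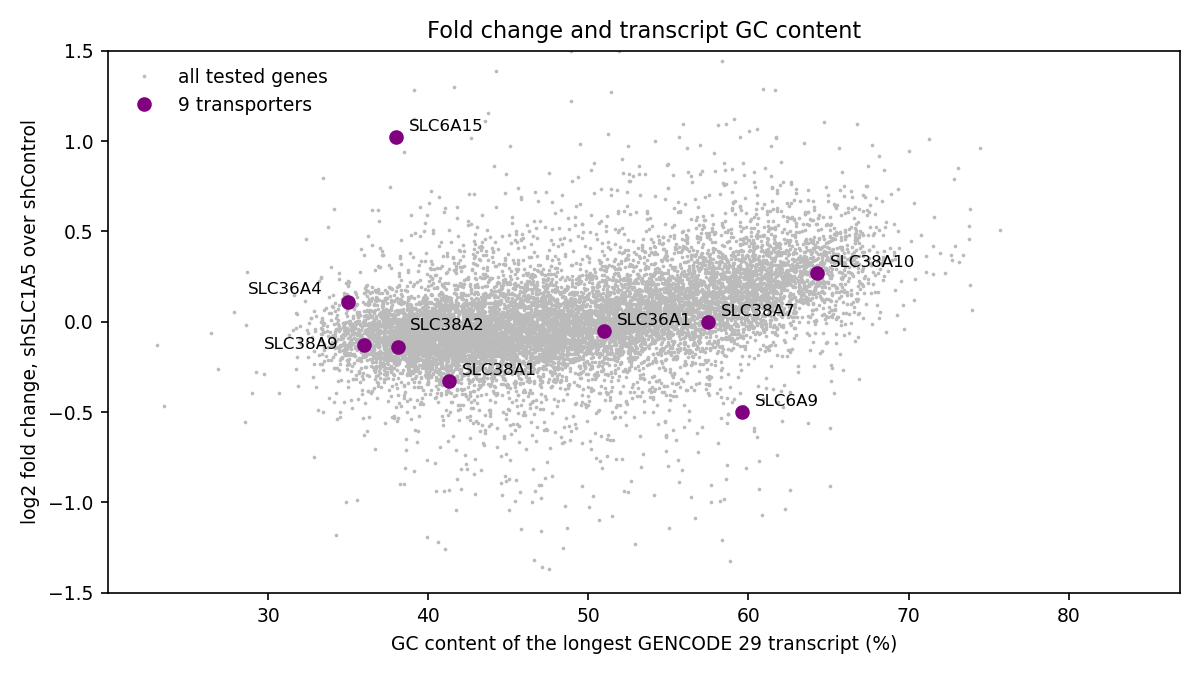
GC content of the longest GENCODE 29 transcript (percent) against the log2 fold change of shSLC1A5 over shControl for all tested genes (grey) and 9 transporters (purple). SLC38A10, at 64.3% GC, lies within the rising band of GC-rich genes, while SLC6A9, at 59.6%, lies below the band and SLC6A15, at 38.0%, lies above it. 47 tested genes lie beyond the vertical limits of 1.5.

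SLC38A7 and SLC38A9, lysosomal members of the SLC38 family, were expressed at low levels and did not pass. SLC38A7, which lets glutamine out of lysosomes, was at 3.56, 3.63 and 3.41 FPKM in shSLC1A5 and at 3.69, 3.50 and 3.31 FPKM in shControl. The groups overlapped, and the interval of the difference ran from 8.99% lower to 9.93% higher (edgeR adjusted p = 0.997). In the GC-corrected fit the log2 fold change of SLC38A7 was -0.15, with an interval of -0.28 to -0.01, and was not called (edgeR adjusted p = 0.104). SLC38A9 was at 2.96, 2.70 and 2.93 FPKM in shSLC1A5 and at 3.13, 3.23 and 2.93 FPKM in shControl, with shControl replicate 3 inside the range of the other group. Its log2 fold change was -0.13 (edgeR adjusted p = 0.129), with an interval from 16.6% lower to 0.662% higher. Differences of these sizes cannot be set aside at this number of libraries.

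SLC38A5, a carrier of glutamine, asparagine and histidine, had 14, 9 and 0 counts in shSLC1A5 libraries and 15, 3 and 0 counts in shControl libraries. Its highest value in any library was 0.0510 FPKM. It was hardly detected in either group, and no difference could be seen at this depth.

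Of the SLC36 carriers, SLC36A1, which moves small amino acids out of lysosomes, was at 4.05, 3.64 and 3.59 FPKM in shSLC1A5 and at 3.92, 3.55 and 4.15 FPKM in shControl. The groups overlapped, with a log2 fold change of -0.05 (edgeR adjusted p = 0.590) and an interval from 13.9% lower to 7.66% higher. SLC36A4, a carrier of proline and tryptophan, was at 7.00, 7.41 and 6.85 FPKM in shSLC1A5 and at 6.38, 6.92 and 6.25 FPKM in shControl. The groups overlapped through shControl replicate 2, the highest of its group. Its log2 fold change was 0.11 (SE 0.0470, edgeR adjusted p = 0.0922). SLC36A4 has the most AT-rich transcript of the members, with 35.0% GC, and in the GC-corrected fit it was called higher (log2 fold change 0.19, edgeR adjusted p = 0.00870). That fit again called 5 of 9 members, against 26.2% of all tested genes, with SLC36A4 in place of SLC38A10.

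**Figure D3:**
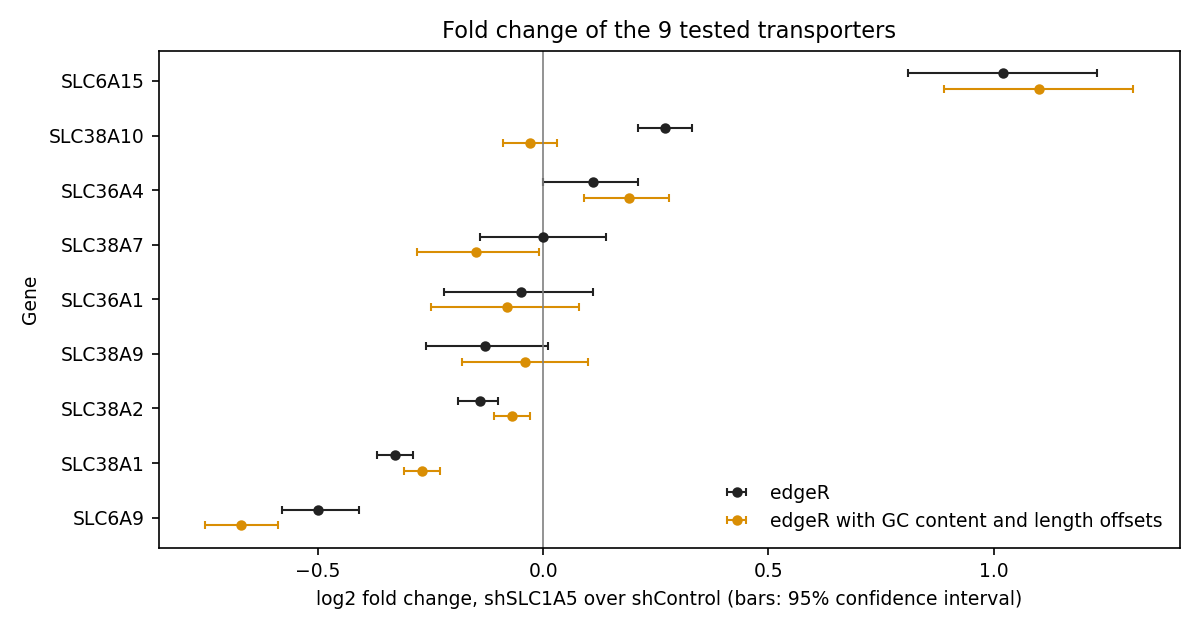
Log2 fold change of shSLC1A5 over shControl for the 9 tested transporters, with bars for the 95% confidence interval, from edgeR (black) and from the GC-corrected fit (orange). SLC6A15 is near 1 and SLC6A9 near -0.5 or lower in both fits, while SLC38A10 is at 0.27 in the first and -0.03 in the second and SLC36A4 at 0.11 and 0.19.

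The SLC6 members moved in opposite directions and furthest of all members. SLC6A9 (ENSG00000196517, chromosome 1, 43991500 to 44031467, minus strand), the glycine carrier GlyT1, was at 8.14, 8.07 and 8.15 FPKM in shSLC1A5 and at 10.9, 11.7 and 11.4 FPKM in shControl. No library of one group reached the other, on 3217 to 3425 counts against 3972 to 4356 counts. It fell by 0.50 on the log2 scale (SE 0.0387, edgeR adjusted p = 3.84e-06), with an interval of 24.7% to 33.1% lower, and by 0.67 in the GC-corrected fit. CCDC24 lies across it on the opposite strand, and 7.83% of SLC6A9 exon bases are shared. CCDC24 was at a mean of 2.16 FPKM in shSLC1A5 and 1.77 FPKM in shControl (log2 fold change 0.28, edgeR adjusted p = 0.0803). The strand setting is not given in the sources used here, so reads in the shared part cannot be told apart.

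SLC6A15 (ENSG00000072041, chromosome 12, 84859491 to 84912825, minus strand), a carrier of proline and branched-chain amino acids found mainly in brain, was at 1.64, 1.72 and 1.67 FPKM in shSLC1A5 and at 0.888, 0.785 and 0.774 FPKM in shControl. Every shSLC1A5 library held more reads of it than any shControl library, with 1145, 1139 and 1097 counts in shSLC1A5 against 557, 485 and 450 counts in shControl. The log2 fold change was 1.02 (SE 0.0951, edgeR adjusted p = 1.46e-05), or 103% higher with an interval of 75.7% to 135%. By size this was rise number 58 of 11841 tested genes. It passed the minimum of 1 FPKM only through the shSLC1A5 libraries. With no such filter its log2 fold change was 1.02 (edgeR adjusted p = 4.08e-04). That fit uses the same counts of SLC6A15, so it is no separate support for the rise. The ratio of SLC6A9 to SLC6A15 in FPKM was 4.98, 4.70 and 4.88 in shSLC1A5 and 12.3, 15.0 and 14.7 in shControl. Exact permutation tests (two-sided, on FPKM) gave p = 0.1 for each of the 5 called members, the smallest that 3 libraries against 3 allow.

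Over the 6 libraries, the genes whose centred log2(FPKM + 1) values were nearest to those of SLC38A1 among 11840 others were PLS3, TNPO1 and MYOF, with root mean square differences of 0.0168, 0.0169 and 0.0177. PLS3 was at a mean of 71.0 FPKM in shSLC1A5 and 87.5 FPKM in shControl. Nearest to SLC6A15 were CBLN2, SH3BP2 and TNFRSF11B, at 0.0228, 0.0261 and 0.0273. CBLN2, like SLC6A15, was scarce, at 1.44 FPKM in shSLC1A5 and 0.704 FPKM in shControl. Both passed the minimum of 1 FPKM only through the shSLC1A5 libraries, so their likeness is partly tied to that minimum. This measure includes the difference between the groups, and the 1 added to FPKM makes the change of a scarce gene smaller. On that scale SLC6A15 rose by 0.56, against an edgeR log2 fold change of 1.02. The edgeR values were 1.02 for CBLN2, 0.61 for SH3BP2 and 0.56 for TNFRSF11B, so the last 2 rose by less than SLC6A15.

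Other genes of the same families were largely silent. Of 24, 15 were listed and 3 were tested, and none of the 12 listed but not tested had a mean over 0.765 FPKM. SLC6A6, the taurine carrier, rose to 46.5 ± 1.21 FPKM in shSLC1A5, against 37.8 ± 0.889 FPKM in shControl (SD, n = 3 each), a log2 fold change of 0.29 (edgeR adjusted p = 4.63e-06). SLC6A8, the creatine carrier, rose to 1.32 ± 0.155 FPKM in shSLC1A5, against 0.764 ± 0.113 FPKM in shControl (log2 fold change 0.77, edgeR adjusted p = 0.00213). It too passed the minimum of 1 FPKM only through the shSLC1A5 libraries. With no such filter, on the same counts, its log2 fold change was 0.77 (edgeR adjusted p = 0.0157). Both were also called in the GC-corrected fit, at 0.26 and 0.53. SLC38A6 was at 2.45 FPKM in shSLC1A5 and 2.56 FPKM in shControl and did not pass (edgeR adjusted p = 0.646), and is named here after its value was seen.

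Among 13 tested amino acid carriers of other families, 6 fell and 0 rose, against 19.0% lower and 20.2% higher over all tested genes, with a median log2 fold change of -0.06. In the GC-corrected fit 4 were called, all lower, against 14.8% lower over all tested genes. Without shSLC1A5 replicate 1 there were again 4, all lower, against 16.1%. Of the called genes SLC1A4 had the largest fall, at -0.63, followed by SLC7A5, SLC7A1 and SLC7A2 at -0.37, -0.36 and -0.17. In the GC-corrected fit SLC7A5 was at -0.59, level with SLC1A4 at -0.60. SLC7A2 was not called in the GC-corrected fit (edgeR adjusted p = 0.213). The lysosomal carriers CTNS, SLC66A1 and SLC15A4, for cystine, cationic amino acids and histidine, did not pass, with edgeR adjusted p-values of 0.829, 0.153 and 0.946. These 3 were picked out after their values were seen.

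Of 15 tested partners of SLC38A9 in amino acid sensing, 4 were called higher and 2 lower, a share near the 39.2% called over all tested genes, with a median log2 fold change of -0.01. Without shSLC1A5 replicate 1 there were 3 higher and 3 lower, against 33.6% called over all tested genes, and in the GC-corrected fit 2 higher and 2 lower, against 26.2%. RPTOR, the subunit of mTORC1 that binds its substrates, was at 13.6 ± 0.126 FPKM in shSLC1A5 and 10.6 ± 0.273 FPKM in shControl (SD, n = 3 each), with a log2 fold change of 0.35 and of 0.16 in the GC-corrected fit. RRAGA, a GTPase that recruits mTORC1 to the lysosome, rose by 0.23, or 0.22 in that fit, while RRAGC, its partner GTPase, was at -0.18 and lost its call there (edgeR adjusted p = 0.0991). MLST8, another mTORC1 subunit, was at 0.25, or -0.01 with the call lost in that fit (edgeR adjusted p = 0.897).

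Of 9 tested regulators of the carriers, 2 rose and 6 fell, against 20.2% higher and 19.0% lower over all tested genes, with a median log2 fold change of -0.13. In the GC-corrected fit 0 were called higher and 5 lower, against 11.4% and 14.8% over all tested genes. Without shSLC1A5 replicate 1 there were 2 higher and 5 lower, against 17.5% and 16.1%. NEDD4L and NEDD4, ubiquitin ligases that remove carriers from the cell surface, fell by 0.33 and 0.26 on the log2 scale. SGK1, a kinase that restrains NEDD4L, was at 1.98, 1.84 and 2.42 FPKM in shSLC1A5 and at 2.34, 2.93 and 2.83 FPKM in shControl, with overlapping groups and a log2 fold change of -0.39 (edgeR adjusted p = 0.0147). All 3 were also called lower in the GC-corrected fit. CEBPB, a transcription factor of the amino acid response, was at 54.1 FPKM in shSLC1A5 and 42.1 FPKM in shControl, a log2 fold change of 0.35 that was 0.04 in the GC-corrected fit (edgeR adjusted p = 0.408). ATF4 was called lower, at -0.18 (edgeR adjusted p = 7.06e-05), and at -0.27 in the GC-corrected fit (edgeR adjusted p = 2.14e-06). It is named here after its value was seen.

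**Figure D4:**
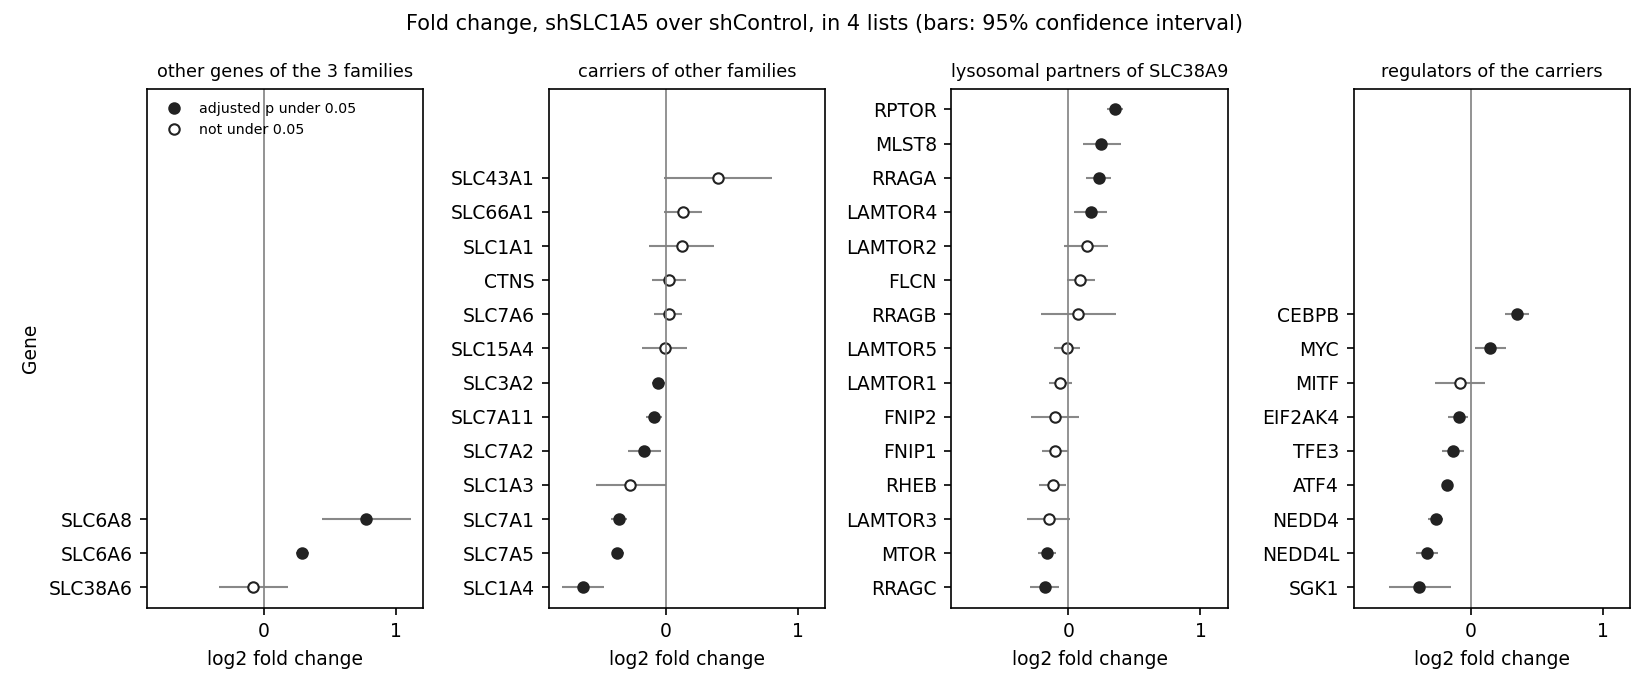
Log2 fold change of shSLC1A5 over shControl for tested genes of 4 lists, with bars for the 95% confidence interval and filled points for an edgeR adjusted p under 0.05. SLC6A6 and SLC6A8 are higher, filled points among carriers of other families lie to the left, and those among lysosomal partners lie on both sides.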

How the data were processed

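Poly(A) RNA of T98G cells was read in pairs, per the labels' protocols. The submitters' processing notes name fastp, HISAT2 and StringTie without a role. The genome build was not given in the sources used here, nor was the strand setting. Per the file headers, the deposited values are counts per gene and FPKM for each of 6 libraries. Of 35750 listed IDs, GENCODE 29 holds 34674, of which 99.77% overlap their own gene there on GRCh38. 0 columns were left unmapped.

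The counts were tested with edgeR 4.0.16 in R 4.3.3 (TMM, group alone, quasi-likelihood F test, Benjamini-Hochberg adjustment) on 11841 genes that averaged 1 FPKM or more. Standard errors are the size of the log2 fold change over the square root of F, and the 95% confidence intervals built on them are not adjusted for the number of genes. In the GC-corrected fit, a loess (span 0.3) of each library's deviations on the GC content and length of transcripts, known for 99.7% of tested genes, entered as offsets. Permutation tests used scipy 1.17.1. Within groups, libraries differed by at least 9.82 times counting noise, so none was a copy. The fit was tested on simulated data. DESeq2 1.42.0, limma 3.58.1 on log2 FPKM, other filters and the omission of each library were alternatives, and list counts without shSLC1A5 replicate 1 and the unfiltered SLC6A8 value were added after seeing the data.

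The members and lists were chosen with earlier results of these data known. Named are the members, SLC1A5, up to 4 called genes per list of the largest fold change (where fewer than 2 passed, the 2 most abundant) and the 3 nearest genes to SLC38A1 and to SLC6A15. Exceptions are stated.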

Additional observations from a re-analysis of the deposited data

How the results depend on the processing

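SLC38A1, SLC38A2, SLC6A9 and SLC6A15 kept their direction and call under every alternative that tested them, with log2 fold changes of -0.34 to -0.27, -0.16 to -0.07, -0.67 to -0.44 and 0.56 to 1.10. SLC6A15 was not tested with a minimum of 5 FPKM. SLC38A10 had a log2 fold change of -0.03 with offsets for GC content and length, with or without the replicate block (adjusted p = 0.503 and 0.490), and between 0.26 and 0.29 otherwise. SLC36A4 was called with those offsets, with the block (0.11, adjusted p = 0.0393), with both (0.19, adjusted p = 0.00480) and without shControl replicate 2. SLC38A7, SLC38A9 and SLC36A1 passed under none of the alternatives run. Over all tested genes, 4641 were called, 3107 with the offsets, 4470 with the replicate block and 2965 with both; the offsets draw fold changes of GC-rich and GC-poor genes together by construction. Deviations from the group mean had correlations of -0.151 to 0.0356 between same-numbered libraries, so no pairing by number was seen in the values. Low correlations cannot tell whether such libraries were prepared together, which the labels do not state. Leaving out each library gave 3863 to 4081 genes and 5 to 6 members, and a ratio of summed FPKM of 0.902 to 0.920, an alternative chosen after seeing the data. The number of libraries, 3 per group, limits the low members most.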
